A study of Mus musculus with 9 samples.

Results

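The genes of MHC class I antigen processing were examined in bone marrow endothelial progenitor cells (EPCs) of mice. The group was fixed by name and holds 10 genes: the proteasome subunits Psmb8, Psmb9 and Psmb10, the peptide transporter Tap1 and Tap2, its partner Tapbp, the transactivator Nlrc5, the light chain B2m, and the heavy chains H2-Q7 and H2-M2. RNA was sequenced in 9 libraries, 3 from EPCs of males (M-EPCs), 3 from those of intact females (F-EPCs) and 3 from those of females without ovaries, which the labels call ovariectomized (OVX-EPCs). All mice were C57BL/6J and 8 weeks old, the ovaries had been removed at around 35 days of age, and no group received a further treatment. In every group the cells were lineage-depleted marrow sorted magnetically for Sca-1 and CD31. The labels call them freshly isolated, while the methods of the study describe culture in an endothelial growth medium without estrogen. The methods speak of biological replicates without saying which mice or cultures the libraries of a group came from, so every p-value below measures only the spread between these libraries.

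The authors deposited a table for each pair of groups, and each table lists only the genes that passed their screen on fold change and FDR: 2093 genes for M-EPCs against F-EPCs, 1317 for M-EPCs against OVX-EPCs and 811 for F-EPCs against OVX-EPCs, 2810 different genes in all. Of the 10 genes, 7 are listed in at least 1 table. Psmb8, Tap2 and B2m are in none, and their levels were not analysed here. The table of M-EPCs against F-EPCs lists 6 (H2-M2, Psmb9, Psmb10, Tap1, Tapbp and Nlrc5), that of M-EPCs against OVX-EPCs lists 1 (H2-M2), and that of F-EPCs against OVX-EPCs lists 2 (H2-Q7 and H2-M2). H2-M2 is therefore the 1 member with a value in all 9 libraries. For Psmb9, Psmb10, Tap1, Tapbp and Nlrc5 no value in OVX-EPCs is listed, and for H2-Q7 none in M-EPCs. The values are normalized counts, that is, the reads of a gene scaled by a factor for the library, which was set anew in each table.

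MHC class I molecules display peptides from inside the cell on its surface, where cytotoxic T cells and natural killer cells read them. The proteasome cuts proteins into peptides, and its inducible form, the immunoproteasome, carries the catalytic subunits encoded by Psmb8, Psmb9 and Psmb10. The transporter made of Tap1 and Tap2 moves peptides into the endoplasmic reticulum, where tapasin (Tapbp) holds the empty heavy chain, paired with B2m, until a peptide has been loaded. Nlrc5 is the transactivator that binds at class I promoters, and the whole pathway is known to be inducible by interferon gamma. Endothelial cells are known to carry class I molecules and to raise them under interferon gamma.

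All 5 listed genes of antigen processing had more reads in M-EPCs than in F-EPCs, by close to the same amount. The ratio of the group means lay between 2.03 for Tapbp and 2.23 for Tap1, and the M-EPC and F-EPC libraries did not overlap for any of the 5. No gene under a fold of 2 passes the authors' screen, so the screen limited the range of these ratios from below. Of all 2093 listed genes, 48.7% had M-EPCs higher without overlap, which is nearly every gene with M-EPCs higher. H2-M2, a heavy chain gene at the far end of the MHC, differed far more, with 341 reads in the M-EPC libraries together and 5 in the F-EPC libraries together. Limma called all 6 listed members higher in M-EPCs (adjusted p under 0.05 and absolute log2 fold change of at least 1). Limma called 48.4% of the 2093 genes of that table higher in M-EPCs, 49.3% lower and 97.6% in either direction, because the table holds selected genes. The count of members therefore says little beyond the direction. These are bulk libraries, so more cells of a type and more RNA per cell cannot be told apart.

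**Figure D1:**
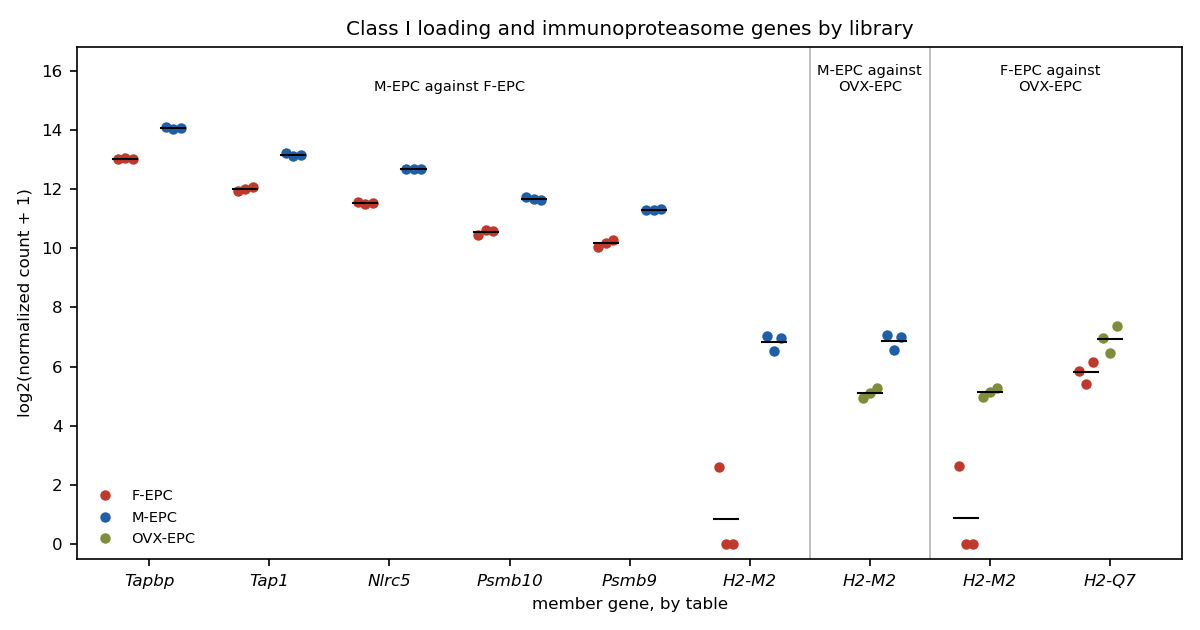
Each point is a library and gives log2 of the normalized count plus 1 for a listed member, with the table it comes from named at the top and the mean of each group as a bar. The M-EPC points of Tapbp, Tap1, Nlrc5, Psmb10 and Psmb9 sit above the F-EPC points in every case, and H2-M2 reads 0 in 2 of 3 F-EPC libraries.

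Psmb9 and Psmb10 encode inducible subunits that replace constitutive catalytic subunits in the immunoproteasome. Psmb9 had normalized counts of 1057, 1157 and 1238 in the F-EPC libraries, while the M-EPC libraries held 2513, 2495 and 2594. Psmb10 had 1386, 1566 and 1541 in the F-EPC libraries, against 3411, 3273 and 3141 in the M-EPC libraries. For both genes the lowest M-EPC library lay well above the highest F-EPC library. The log2 fold change of Psmb9 was 1.14 with a standard error (SE) of 0.0999, and its adjusted p by limma was 0.000218. That of Psmb10 was 1.13 with an SE of 0.0983 (limma adjusted p = 0.000214). The third inducible subunit, Psmb8, is not listed, and neither is any of the 16 constitutive subunits of the 20S core. Of 8 genes of the immunoproteasome and its activator, these 2 were the listed ones.

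Tap1 and Tapbp act after the peptides have been cut, at the membrane of the endoplasmic reticulum. Tap1 had normalized counts of 3908, 4096 and 4297 in the F-EPC libraries and of 9551, 8873 and 9050 in the M-EPC libraries. Tapbp, the most abundant listed member, had 8339, 8486 and 8314 in the F-EPC libraries, against 17401, 16771 and 16977 in the M-EPC libraries. The log2 fold change was 1.16 (SE 0.0918, limma adjusted p = 0.000164) for Tap1 and 1.02 (SE 0.0821, limma adjusted p = 0.000170) for Tapbp. Tapbpl, a relative of tapasin that edits the peptides on class I molecules, was also higher in M-EPCs, by 1.93 on the log2 scale (SE 0.122, limma adjusted p = 8.95e-05). It is the only gene of the loading list, besides Tap1 and Tapbp, that the table holds, so 3 of 10 genes were listed and all 3 were higher, with a median log2 fold change of 1.16. Over all 2093 listed genes, 1042 of them with M-EPCs higher and 1051 with M-EPCs lower, the median was -0.99, and it turned to 0.99 when genes averaging under 20 normalized counts in both groups were dropped. Over the 1042 with M-EPCs higher it was 1.54.

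Nlrc5 had normalized counts of 3004, 2890 and 2940 in the F-EPC libraries and of 6516, 6600 and 6526 in the M-EPC libraries. The coefficient of variation was 0.706% in M-EPCs, the lowest of the members there, and 1.95% in F-EPCs, where Tapbp was lower with 1.11%. The log2 fold change of Nlrc5 was 1.15 (SE 0.0821, limma adjusted p = 0.000127). The exact permutation test over the libraries, two-sided, gave p = 0.10 for each of the 6 members, which is the smallest value that 3 libraries against 3 can give.

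Per kilobase of exon the levels kept 1 order in both groups. Tapbp stood first with a mean normalized count per kilobase of 4699 ± 88.5 in M-EPCs and 2310 ± 25.5 in F-EPCs (SD, n = 3). Psmb10 followed with 1921 ± 79.2 and 878 ± 57.03, Tap1 with 1672 ± 64.2 and 749 ± 35.5, Nlrc5 with 771 ± 5.44 and 347 ± 6.76, and Psmb9 with 692 ± 14.5 and 314 ± 24.7 (SD, n = 3). H2-M2 was last with 74.0 ± 13.6 in M-EPCs and 1.09 ± 1.88 in F-EPCs (SD, n = 3). No 2 neighbours in that order overlapped between libraries in either group. Exon lengths were taken as the union of annotated exons, and another choice of transcript would move these levels.

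The 5 genes of antigen processing were also compared with each other within each library, where the size factor cancels out. Over the 10 possible pairs, the log2 ratio of the 2 genes differed between M-EPCs and F-EPCs by between 0.00676 and 0.135. Only Tapbp stood slightly apart. The log2 ratio of Tap1 to Tapbp was -0.90 ± 0.0280 in M-EPCs and -1.03 ± 0.0723 in F-EPCs, and that of Tapbp to Nlrc5 was 1.38 ± 0.0359 and 1.51 ± 0.0414 (SD, n = 3). Those were the 2 of 10 pairs whose groups did not overlap, each with p = 0.10 by the exact permutation test, two-sided, and 0.50 after Benjamini-Hochberg adjustment over the 10 pairs. The fold changes of the 5 genes spanned 0.135 on the log2 scale, against a standard error of at least 0.0821 for each. That span was limited from below by the authors' screen, which a gene of the pathway with a smaller change would not have passed.

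All 5 fold changes stood near the lower edge of the authors' screen. By absolute log2 fold change Tap1 ranked 1683 and Tapbp ranked 2003 of the 2093 listed genes, with Nlrc5, Psmb9 and Psmb10 between them. By mean level they ranked between 24 and 176. DESeq2 with its own size factors, computed on the listed genes alone, lowered all 5, to between 0.67 for Tapbp and 0.81 for Tap1, which is below the threshold of 1 and in the same direction. That scaling moved the median of the listed genes from -0.99 to -1.35 as well, and changed the split of calls from 1012 higher and 1031 lower to 622 higher and 1050 lower. Measured from the median of the table, Tap1 stood 2.15 above it in the limma fit and 2.16 above it under DESeq2, but only 0.17 above it, and Tapbp 0.033, among genes with a mean of at least 20. Leaving out any library changed no call among the 6 members.

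**Figure D2:**
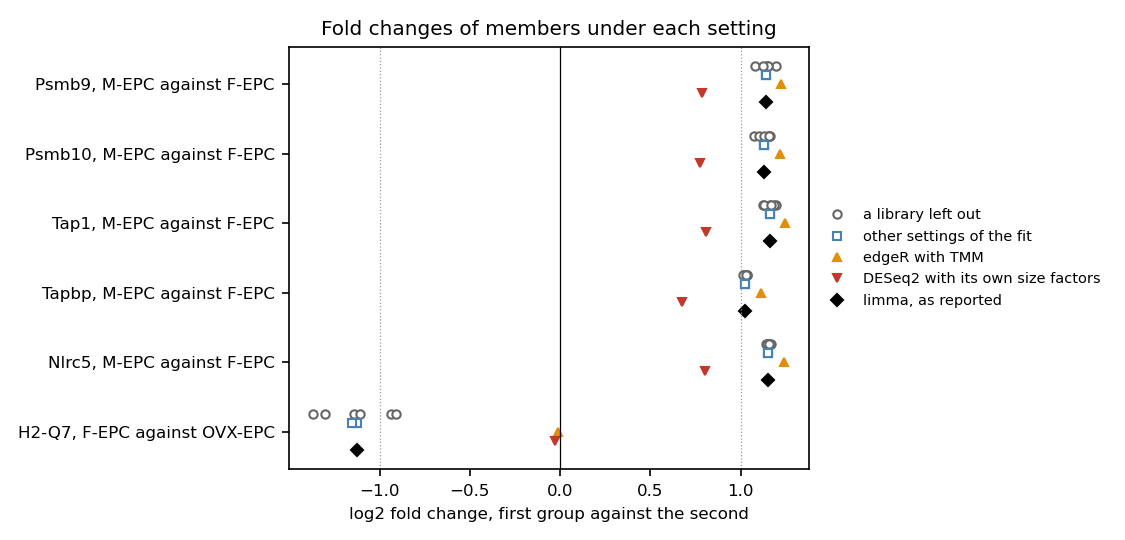
The horizontal axis gives the log2 fold change of members other than H2-M2 in the limma fit and under each alternative, and dotted lines mark an absolute value of 1. The 5 antigen processing genes moved below 1 only with the size factors of DESeq2, and H2-Q7 moved to near 0 with either scaling computed on the listed genes.

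Psmb9 and Tap1 lie head to head in the class II part of the MHC on chromosome 17 and share a promoter region. In the GENCODE annotation of GRCm38, the build named in the labels as mm10, Psmb9 spans chr17:34181987-34187764 on the minus strand and Tap1 spans chr17:34187553-34197225 on the plus strand. Their annotated exons share 212 bases on opposite strands. The libraries were made with a directional kit, but the strand setting of the counting is not given in the sources used here, so reads within those bases may belong to either gene. The RefSeq starts of the 2 genes have 225 bases between them, and their promoter windows of 300 bases share 275. The window of Tap1 (GRCm38.p6, chr17:34187306-34187605, plus strand, 250 bases before the start and 50 after) is shown because it covers both starts:
Tap1: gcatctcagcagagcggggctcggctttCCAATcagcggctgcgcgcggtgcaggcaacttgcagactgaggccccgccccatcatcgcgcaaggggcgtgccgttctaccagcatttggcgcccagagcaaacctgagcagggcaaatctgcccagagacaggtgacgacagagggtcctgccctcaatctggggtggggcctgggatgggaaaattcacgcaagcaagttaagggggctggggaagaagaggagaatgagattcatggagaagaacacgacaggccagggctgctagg
Capitals mark CCAAT, which is the letters ATTGG read on the other strand, the core of the inverted CCAAT or Y box known from MHC promoters. This site lies 222 bases before the start of Tap1 and 8 bases before that of Psmb9, and it is a single site seen from both sides. ATTGG occurs in 37.4% of the 32851 mouse promoter windows in RefSeq, searched on both strands, so a match is common.

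RefSeq windows were matched for 8 of the 10 members, Nlrc5 and Tap2 being without an entry. ATTGG was found in 6 of those 8 (H2-Q7, H2-M2, Psmb9, Tap1, Tapbp and B2m). The interferon-stimulated response element was searched only in a strict form, GAAA, any 2 bases and GAAA, so a looser form would be missed. These letters are held by 3.44% of all windows and here occurred in the window of B2m alone. TTCNNNGAA, the letters of a gamma-activated site, is held by 8.30% of windows and occurred in that of Psmb8 alone. Neither of those 2 members is listed in a table. The RefSeq start of Tapbp, on which its window is placed, lies 3579 bases inside the annotated GENCODE gene, which has a longer transcript. None of the letters searched was found in the window of Psmb10, which lies on chromosome 8 (chr8:105935735-105938444, minus strand), as does Nlrc5 (chr8:94434356-94527272, plus strand). Tapbp (chr17:33915899-33929292, plus strand) overlaps Zbtb22 on the same strand by 149 exonic bases and Gm19412 on the other strand by 904. Nlrc5 shares 78 exonic bases with 9330175E14Rik on the other strand.

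H2-M2 is a nonclassical class I heavy chain gene of the M region, and its levels were ordered M-EPCs, OVX-EPCs and F-EPCs from high to low. In the table of M-EPCs against F-EPCs its normalized counts were 129, 90.7 and 124 in the M-EPC libraries and 5.05, 0 and 0 in the F-EPC libraries. In the table of M-EPCs against OVX-EPCs they were 132, 92.8 and 127 for M-EPCs, while the OVX-EPC libraries held 29.9, 34.0 and 37.6. No library of a group overlapped with one of another group. The F-EPC values rest on 5 reads, all in F-EPC 1, and the 95% Poisson interval of that sum is 1.62 to 11.7 reads, for counting error only.

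Compared with F-EPCs, H2-M2 was higher in M-EPCs by 5.97 on the log2 scale of normalized count plus 1 (SE 0.764, limma adjusted p = 0.000829), which ranked 12 of 2093 by absolute size. Compared with OVX-EPCs it was higher in M-EPCs by 1.75 (SE 0.194, limma adjusted p = 0.000446). In F-EPCs against OVX-EPCs the log2 fold change was -4.26 (SE 0.756, limma adjusted p = 0.00280), rank 7 of 811. The 3 comparisons share libraries in pairs, so they are not independent of each other. The background is 98.8% of genes called in the table of M-EPCs against OVX-EPCs, 40.8% being higher and 58% lower in M-EPCs, and 41.2% of all listed genes had M-EPCs higher without overlap. It is 98.2% in that of F-EPCs against OVX-EPCs, 30.8% being higher and 67.3% lower in F-EPCs. The exact permutation test, two-sided, gave p = 0.10 in each.

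The size of the H2-M2 difference from F-EPCs depends on F-EPC 1 and on the pseudocount. Against the other two F-EPC libraries, both at 0, the M-EPC mean was at least 40.0-fold higher and the OVX-EPC mean at least 11.5-fold higher, with a floor of 3 reads per library. With a pseudocount of 0.1 the log2 fold changes were 8.25 for M-EPCs against F-EPCs and -6.51 for F-EPCs against OVX-EPCs. Scalings computed on the listed genes gave -3.15 (edgeR with TMM) and -3.21 (DESeq2) for F-EPCs against OVX-EPCs, and 2.42 (DESeq2) for M-EPCs against OVX-EPCs. The direction and the call were the same under every alternative run on H2-M2 at the thresholds of the limma fit.

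H2-Q7, a nonclassical heavy chain of the Q region that encodes a Qa-2 antigen, is listed for F-EPCs against OVX-EPCs alone. Its normalized counts were 56.6, 42.1 and 70.8 for F-EPCs, while the OVX-EPC libraries held 126, 87.1 and 166. The groups did not overlap (of all 811 listed genes, 68.2% had F-EPCs lower without overlap), but the highest F-EPC library and the lowest OVX-EPC library were closer to each other than the OVX-EPC libraries were among themselves. The log2 fold change was -1.13 (SE 0.307, limma adjusted p = 0.0134), with p = 0.10 by the exact permutation test, two-sided. This call is the least stable among the members. Without F-EPC 2 it was -0.94 and without OVX-EPC 3 it was -0.91, both under the threshold of 1.

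Scalings computed on the listed genes left no difference for H2-Q7, with -0.01 by edgeR with TMM (adjusted p = 0.979) and -0.03 by DESeq2 (adjusted p = 0.950). The median of the 811 listed genes moved with it, from -1.31 in the limma fit to -0.18 under both, and the split of calls moved from 250 higher and 546 lower to 255 higher and 149 lower by edgeR with TMM and to 255 higher and 125 lower by DESeq2. H2-Q7 thus stood 0.19 above that median in the limma fit and 0.16 above it under both scalings, and between -0.03 and 0.37 from it with a library left out. In addition, 26.4% of the 50-base stretches of H2-Q7 transcripts also occur in transcripts of other genes, most of them of H2-Q10, so its reads may have been shared among copies. For H2-M2 that share is 1.61%, and for Psmb9, Psmb10 and Nlrc5 it is 0.

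The promoter windows of H2-Q7 (chr17:35438905-35439204, plus strand) and H2-M2 (chr17:37483505-37483804, minus strand; GRCm38.p6, 250 bases before the start and 50 after) are shown because they share a run of letters, although the windows lie 2044 kb apart:
H2-Q7: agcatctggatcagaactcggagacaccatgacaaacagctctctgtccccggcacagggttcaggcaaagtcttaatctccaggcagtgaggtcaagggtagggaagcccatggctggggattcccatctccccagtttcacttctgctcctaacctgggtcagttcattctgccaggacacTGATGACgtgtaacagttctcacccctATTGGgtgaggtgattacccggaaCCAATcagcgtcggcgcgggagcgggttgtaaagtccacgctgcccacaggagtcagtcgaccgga
H2-M2: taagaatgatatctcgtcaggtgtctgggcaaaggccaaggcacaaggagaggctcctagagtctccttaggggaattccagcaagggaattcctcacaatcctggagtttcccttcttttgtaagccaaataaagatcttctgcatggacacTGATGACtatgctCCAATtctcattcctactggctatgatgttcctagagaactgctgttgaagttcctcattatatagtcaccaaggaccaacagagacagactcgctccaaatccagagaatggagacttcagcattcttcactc
Capitals mark TGATGAC, letters of the X2 box known from MHC promoters, and ATTGG or its reverse CCAAT. The letters TGATGAC lie 67 bases before the start of H2-Q7 and 97 bases before that of H2-M2, and the nearest ATTGG or CCAAT follows, 40 and 84 bases before the starts and on opposite strands. The run common to both windows is GGACACTGATGAC, 13 bases long, and it occurs in 5 of all the windows, the others being those of H2-D1, H2-Q4 and H2-Q6, which are heavy chain genes as well. TGATGAC occurs in 3.23% of all windows and together with ATTGG in 1.20%. GGGGATTCCC, the kappa B letters of class I enhancers, lies 133 bases before the start of H2-Q7 and is held by 0.107% of windows. It was not found in the window of H2-M2, which has a looser kappa B match (GGG, any 3 bases and TTCC) 180 bases before its start, of a kind held by 5.56% of windows. TGATGAC and GGGGATTCCC were chosen after the windows had been read, and a match is a description of letters only.

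For M-EPCs against F-EPCs, 15 pathway genes besides the members are listed, 13 called higher in M-EPCs, 1 called lower and 1 not called, beside 48.4% called higher over the whole table. The 8 pathway lists hold 111 genes, of which 29 are listed in any table. Of 24 heavy chain genes, 3 are listed for M-EPCs against F-EPCs. H2-T23, which encodes the Qa-1 heavy chain, was called higher at 12251 ± 277 against 5470 ± 157 (SD, n = 3), a log2 fold change of 1.16, which is close to that of the antigen processing genes. H2-Q1 was not called (log2 fold change 1.82, SE 0.845, limma adjusted p = 0.0807), its M-EPC values being 6.66, 6.29 and 43.0. Up to 15.0% of the 50-base stretches of these 2 genes occur in other genes too. All 3 listed of 10 class I-like genes outside the MHC were higher in M-EPCs, Fcgrt (the neonatal Fc receptor) by 2.44, Cd1d1 (which presents lipids) by 1.59 and Mill2 by 1.15.

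Ciita and Irf1 gave larger fold changes than Nlrc5, the third listed transactivator, though the difference between them was not tested. Ciita, the class II transactivator, had a mean normalized count of 5154 ± 174 in M-EPCs and 155 ± 20.5 in F-EPCs (SD, n = 3), a log2 fold change of 5.05 (SE 0.124, limma adjusted p = 1.00e-05). Irf1, a transcription factor of the interferon response, stood at 7772 ± 125 and 1182 ± 24.3 (log2 fold change 2.72). With Nlrc5 these were the 3 listed of 12 transactivator genes, and all were higher in M-EPCs, with a median of 2.72. Socs1 and Socs3, inhibitors of cytokine signalling, were higher by 2.68 and 1.24. Ifng, the gene of interferon gamma itself, lay between 18.1 and 19.1 in the M-EPC libraries and at 0 in each F-EPC library, at least 6.39-fold higher with a floor of 3 reads per library.

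The list of receptors for class I molecules did not move one way. It also holds Pilrb1, a receptor known for other ligands. For M-EPCs against F-EPCs 4 of 22 are listed, 3 called higher and 1 lower in M-EPCs, beside 48.4% higher and 49.3% lower over the whole table. Klrk1 (an activating receptor of natural killer cells), Pilrb1 and Klra2 were higher in M-EPCs by 2.84, 1.70 and 1.53. Cd8b1, a chain of the T cell coreceptor for class I, was at 0 in each M-EPC library and at 7.74 ± 2.69 in F-EPCs (SD, n = 3), at least 2.54-fold lower with a floor of 3 reads per library. For M-EPCs against OVX-EPCs 9 are listed, 3 higher and 6 lower in M-EPCs, beside 40.8% higher and 58% lower over the whole table. Their median was -1.58, or -1.26 with Cd8b1 at its bound. For F-EPCs against OVX-EPCs 4 are listed, 1 higher and 3 lower in F-EPCs, beside 30.8% higher and 67.3% lower over the whole table. Both of these splits are close to those shares and say little about the receptors.

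**Figure D3:**
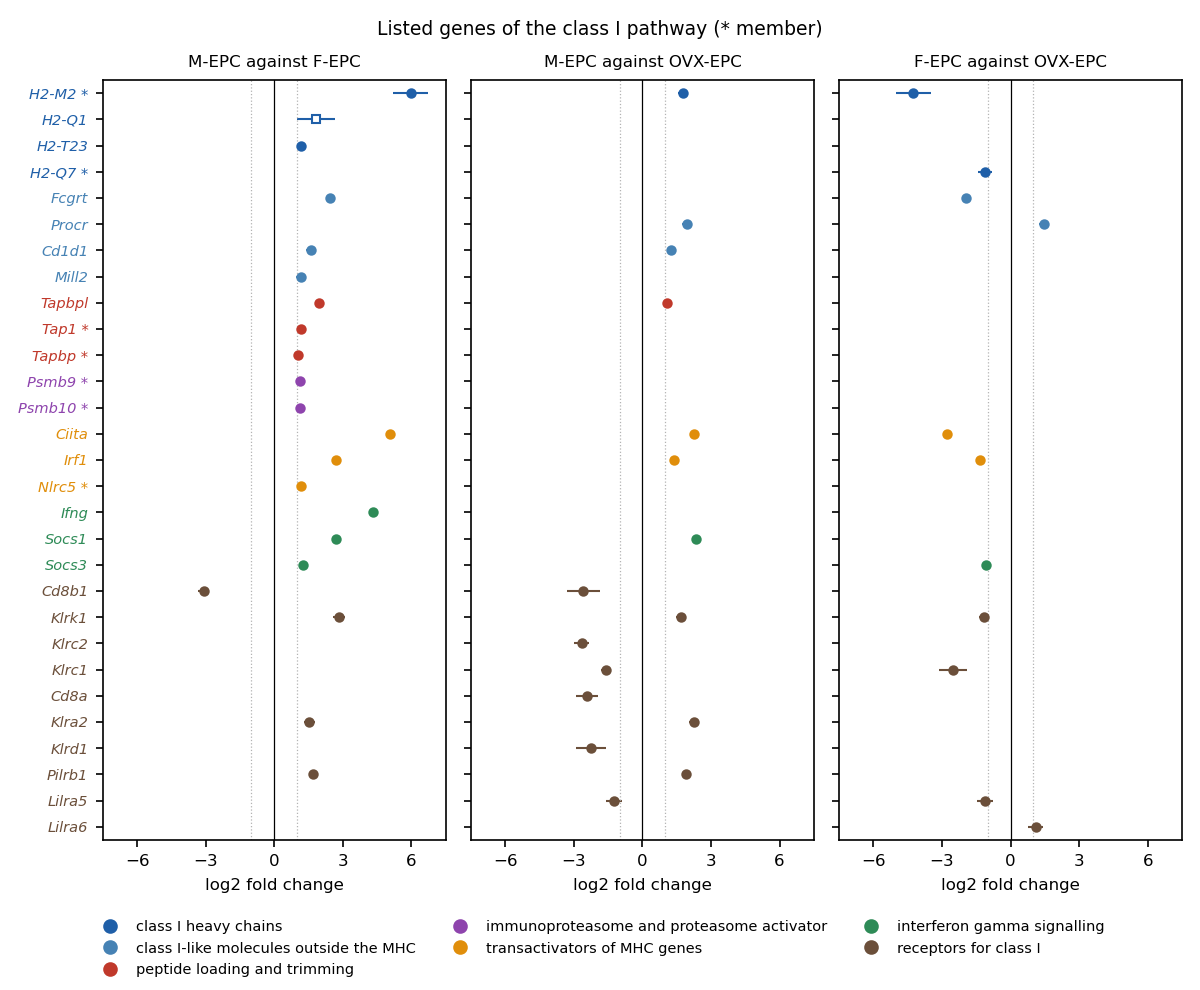
Points give the log2 fold change of each listed gene of the class I pathway lists with its standard error as a bar, in the first group against the second, and an open square marks the gene that was not called. Asterisks mark the members, which sit next to the dotted line at 1 for M-EPCs against F-EPCs except H2-M2 at 5.97.

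For M-EPCs against OVX-EPCs 15 pathway genes besides H2-M2 are listed, 9 called higher and 6 lower in M-EPCs, beside 40.8% higher and 58% lower over the whole table. There Ciita (2.27), Irf1 (1.40), Socs1 (2.34), Tapbpl (1.09), Procr (1.94) and Cd1d1 (1.24) were higher in M-EPCs on the log2 scale, and no proteasome gene is listed. For F-EPCs against OVX-EPCs, F-EPCs were lower in Ciita (-2.79), Irf1 (-1.32), Socs3 (-1.08) and Fcgrt (-1.93) and higher in Procr (1.47). The sizes depend on the scaling, since edgeR with TMM and DESeq2 moved the median of that comparison from -1.31 to -0.18. Values of these genes under those scalings are not given here. Since Socs1, Cd1d1, Tapbpl, Klra2, Pilrb1 and Cd8b1 of the pathway lists are listed in both tables with M-EPCs, their reads in F-EPCs and OVX-EPCs could also be compared. In a limma fit over all 1495 genes with reads in both groups, 52.4% were called and none of these 6. None of the 6 is listed for F-EPCs against OVX-EPCs, so none had passed the authors' screen for that pair. The missing call was therefore largely set beforehand and is no result about these genes. Their log2 fold changes for F-EPCs against OVX-EPCs were -0.35 for Socs1, -0.35 for Cd1d1 and -0.84 for Tapbpl, and they were 0.71 for Klra2, 0.18 for Pilrb1 and 0.52 for Cd8b1. The adjusted p by limma lay between 0.00385 (Tapbpl) and 0.590 (Cd8b1). Of the 684 genes that come from the other 2 tables only, 0.877% were called in that fit. In the same kind of fit, 90.3% of genes were called for M-EPCs against F-EPCs and 79.9% for M-EPCs against OVX-EPCs. No member gained a value from these fits.

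The members of the MHC on chromosome 17 lie among many other listed genes. Between the start of Tapbp and the end of H2-M2 (chr17:33915899-37483552, 334 annotated genes), 34 genes are listed for M-EPCs against F-EPCs, 27 called higher and 5 lower in M-EPCs. That is 79.4% higher, beside 48.4% over the whole table, with a median log2 fold change of 1.33 beside -0.99, which turned to 0.99 among genes with a mean of at least 20. The changes of Tapbp, Psmb9 and Tap1 were small in this region. The largest outside the lists were those of the class II genes H2-Ab1 (5.33), H2-Aa (5.26) and H2-Eb1 (5.17), followed by Ly6g6f (-5.00) and Mpig6b (-4.20), an inhibitory receptor of megakaryocytes and platelets. For M-EPCs against OVX-EPCs 19 genes of the region are listed, 13 higher and 6 lower in M-EPCs beside 40.8% higher and 58% lower over the whole table. For F-EPCs against OVX-EPCs 13 are listed, all 13 lower in F-EPCs beside 67.3% lower over the whole table. With edgeR TMM the calls over that whole table were 255 higher and 149 lower, and with DESeq2 255 higher and 125 lower. The region was not recounted under those scalings. H2-M2 had the largest fitted change of the region in both tables that hold F-EPCs, but that rank depends on how the libraries at 0 are treated. Against F-EPC 2 and F-EPC 3 alone, both at 0 and set to the floor of 3 reads per library, the log2 bounds are 5.32 for M-EPCs against F-EPCs and -3.53 for F-EPCs against OVX-EPCs, smaller in size than the changes of H2-Ab1 (5.33) and Btnl6 (-3.68). F-EPC 1, with 5 reads, does not enter these bounds. No test was run on these counts, since neighbouring genes are not independent.

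**Figure D4:**
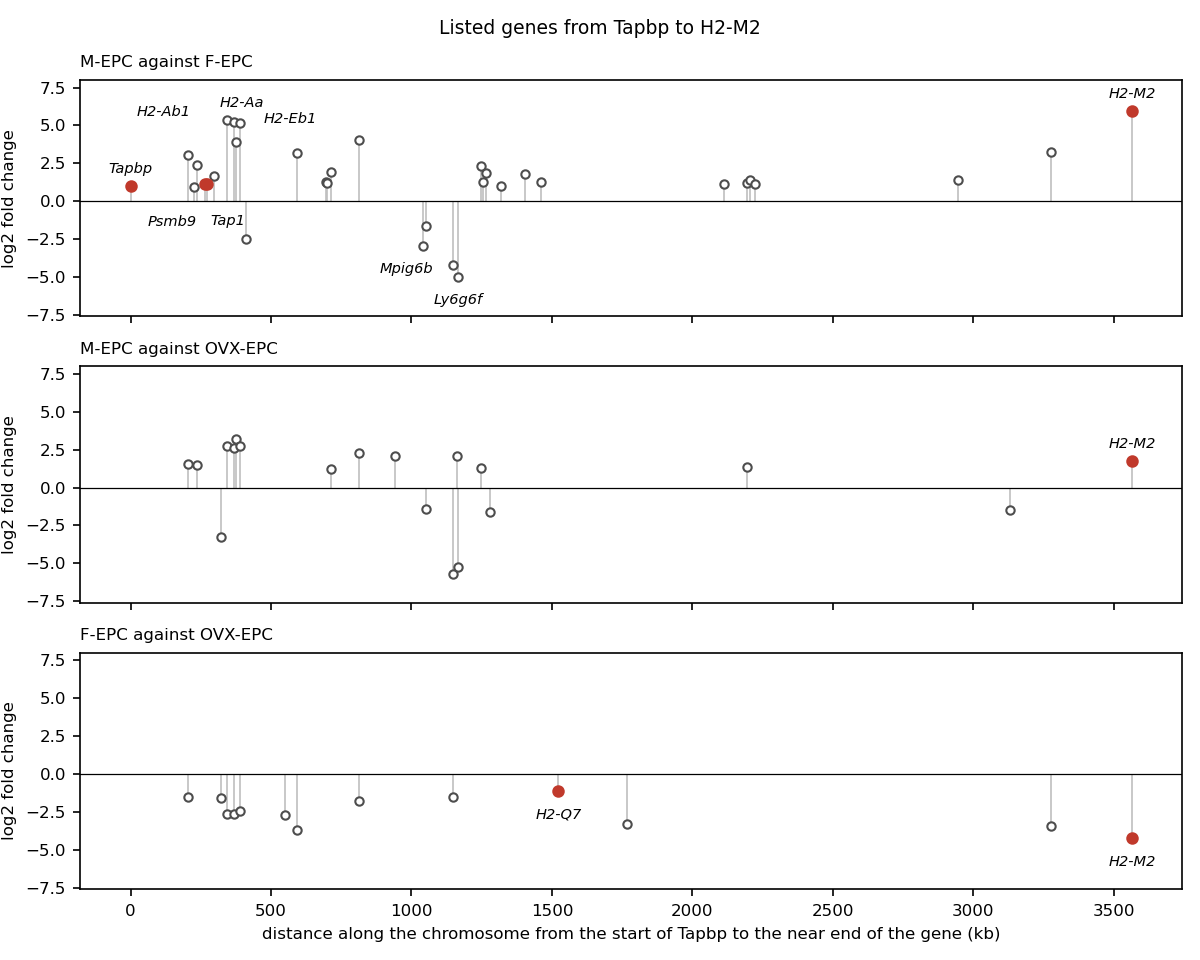
The log2 fold change of each listed gene between Tapbp and H2-M2 is plotted against its distance from the start of Tapbp in kb, in a panel per comparison, with members as filled points. H2-M2 lies at the far end and has the largest fitted change of the region in the panel of M-EPCs against F-EPCs and in that of F-EPCs against OVX-EPCs, while Tapbp, Psmb9 and Tap1 sit near 1.

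The genes with a pattern most like that of H2-M2 were sought among the 1288 genes with all 9 libraries. After centring each gene on the log2 scale, the mean absolute difference from H2-M2 over the 9 libraries was 0.58 for Dnase1l3, 0.61 for Tlr12, 0.64 for Cxcl9, 0.69 for Gm35551 and 0.70 for Gm49967, against a median of 2.42. Dnase1l3, a secreted DNase, had mean normalized counts of 863 in M-EPCs, 251 in OVX-EPCs and 14.6 in F-EPCs. Cxcl9, a chemokine known as a target of interferon gamma, had 581, 72.3 and 13.5 in the same order. H2-M2 was taken as the reference for this search after the values were seen, because none of the antigen processing members has all 9 libraries.

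Markers of several cell types differed between the groups, and their part in the results above was not tested. The counts of markers below cover those listed in the table of the comparison. Pecam1, which encodes the CD31 used in the sort, had a mean normalized count of 487 ± 3.64 in M-EPCs, of 157 ± 7.56 in F-EPCs and of 378 ± 8.63 in OVX-EPCs (SD, n = 3). Its M-EPC and F-EPC values are from the table of those 2 groups, and the OVX-EPC value is from that of F-EPCs against OVX-EPCs. The endothelial genes Vwf, Kdr and Tie1 were lower in M-EPCs, with log2 fold changes of -3.34, -2.38 and -1.26 against F-EPCs. The summed level of the 4 listed of 10 endothelial markers lay between 787 and 827 in M-EPCs and between 2886 and 2923 in F-EPCs. Listed markers of B cells (5 of 7), T cells (4 of 7), neutrophils (4 of 7), natural killer cells (1 of 7) and monocytes and macrophages (1 of 10) were all lower in M-EPCs. Of the dendritic cell markers 5 of 10 are listed, Batf3 higher and the other 4 lower in M-EPCs. Over the 7 cell types, 22 of 24 listed markers were called lower and 2 higher in M-EPCs, beside 49.3% lower and 48.4% higher over the whole table. Cd209a and Klrb1c, markers of dendritic and natural killer cells, were at 0 in each M-EPC library. Klrb1c is the only listed marker of natural killer cells. In the fit over genes from any table, Ncr1 of the same cells went the other way (log2 fold change 0.45). Cd4 (-0.70), Cd79b (-0.40), Elane (-1.97) and Ccr9 (-0.07) were lower in M-EPCs in that fit, and none of them or Ncr1 was called. The summed levels in M-EPCs and F-EPCs lay at 42.2 to 44.7 and 187 to 241 for B cells, 1494 to 1537 and 3209 to 3401 for T cells, and 46.6 to 60.2 and 469 to 524 for neutrophils. They lay at 161 to 201 and 222 to 230 for dendritic cells, 72.9 to 112 and 197 to 242 for monocytes and macrophages, and 0 and 5.05 to 7.75 for natural killer cells.

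For F-EPCs against OVX-EPCs, the comparison that holds H2-Q7, listed markers of B cells (2 of 7), T cells (2 of 7) and natural killer cells (1 of 7) and Pecam1 were lower in F-EPCs. Of the listed neutrophil markers 3 were higher in F-EPCs and Elane was not called, and of 3 listed dendritic cell markers 1 was higher and 2 lower. Together, 8 of 13 listed markers were called lower and 4 higher in F-EPCs, beside 67.3% lower and 30.8% higher over the whole table, so these counts say little about the markers. Scalings computed on the listed genes moved the median of that table from -1.31 to -0.18, and values of the markers under them are not given here. For M-EPCs against OVX-EPCs, where H2-M2 was higher in M-EPCs, the 27 listed markers of the 7 cell types were called lower in M-EPCs, beside 58% called lower over the whole table. Markers with values from the other tables did not all move that way. In the fit over genes from any table, Pecam1 had a log2 fold change of 0.42 (498 against 372, limma adjusted p = 0.0130), S100a8 of 0.46 and Ltf of 0.55, none of them called, while S100a9 was called lower (-1.46).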

How the data were processed

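The data are RNA sequencing of 9 libraries, 3 per group. The authors mapped reads with HISAT2 to mm10, quantified them with Cufflinks and compared groups with DEseq. Versions, annotation and strand setting are not given in the sources used here. The deposited signal is a normalized count per library, reads divided by a size factor set in each table. Whole reads were recovered for 100% of values (within 0.02 of a whole read), and 435, 292 and 807 genes shared by pairs of tables had identical reads. Reads on listed genes lay between 1602317 and 2070442 per library for M-EPCs against F-EPCs, 707791 and 923145 for M-EPCs against OVX-EPCs, and 454298 and 468833 for F-EPCs against OVX-EPCs. Unlisted genes have no value here, so total depth is unknown. The tables also hold the authors' fold changes and p-values, which were used only to check that every row passes a fold of 2 and an FDR of 0.05.

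Limma 3.58.1 (R 4.3.3) was fitted to log2(normalized count + 1) of the 6 libraries of each comparison, without covariates or a filter, with Benjamini-Hochberg adjustment over all listed genes. SD and n refer to libraries. Alternatives were a pseudocount of 0.1, a mean of at least 20, an FDR of 0.01, an absolute log2 fold change threshold of 2, a replicate block, leaving out each library, and edgeR 4.0.16 or DESeq2 1.42.0 on the recovered reads. Named were the 10 members, listed genes of the pathway lists, the 5 largest changes of the MHC region and the 5 genes most like H2-M2. Members and lists were chosen with earlier results of these data known, and 1 gene of the pathway lists was later left out of lists and counts and is not reported here. On simulated data with 200 genes changed 4-fold, limma recovered 194, 190 and 196 in the 3 comparisons, with 2, 0 and 3 false calls. Positions are from GENCODE M21, which gave 107 of 111 pathway symbols, and promoters are from RefSeq.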

Additional observations from a re-analysis of the deposited data

How the results depend on the processing

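Of 234 values recomputed under an alternative, 200 were kept. The 234 include counts of called genes and members, which have no direction and were kept when close to the count in the limma fit. Fold changes were kept when their direction and side of the threshold stayed the same, and none reversed direction. H2-M2 kept both in 12 of 12 alternatives in each comparison, and H2-Q7 in 8 of 12. Psmb9, Psmb10, Tap1, Tapbp and Nlrc5 each kept both in 11 of 12. With a threshold of 2 on the absolute log2 fold change, the listed genes called went from 2043, 1301 and 796 to 738, 574 and 300, and the members called from 6, 1 and 2 to 1, 0 and 1, because the threshold itself is higher. DESeq2 with its own size factors called 1 member for M-EPCs against F-EPCs, with log2 fold changes of 0.79 for Psmb9, 0.78 for Psmb10, 0.81 for Tap1, 0.67 for Tapbp and 0.80 for Nlrc5, and 380 listed genes and 1 member for F-EPCs against OVX-EPCs. For M-EPCs against OVX-EPCs it split the calls into 549 higher and 495 lower, beside 537 and 764, and moved the median of listed genes from -1.26 to -0.64. EdgeR with TMM called 404 listed genes and 1 member for F-EPCs against OVX-EPCs. Both scalings use the listed genes alone, by construction. An FDR of 0.01 left 1 member called for F-EPCs against OVX-EPCs.

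Leaving out a library gave between 1864 and 1913, 1208 and 1235, and 724 and 755 listed genes called, and members called stayed at 6 and 1 and lay between 1 and 2 for F-EPCs against OVX-EPCs, with 1 without F-EPC 2 or OVX-EPC 3. In the fit over genes from any table, members called were again 6, 1 and 2. They were 1, 0 and 1 at a log2 fold change of at least 2, 1 with DESeq2 for M-EPCs against F-EPCs, and 1 at an FDR of 0.01, with edgeR TMM or with DESeq2 for F-EPCs against OVX-EPCs, where leaving out a library gave between 1 and 2 (1 without F-EPC 1, F-EPC 2, OVX-EPC 1 or OVX-EPC 3). The replicate numbers do not pair the libraries, since deviations of libraries with the same number correlated between -0.019 and 0.032 over genes. With the number as a replicate block, 2003, 1288 and 781 listed genes and 6, 1 and 2 members were called. Depth limits H2-M2 most, at 5 reads in F-EPCs, while the other listed members have at least 42 reads in each library.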
